A study of Homo sapiens with 15 samples.

Results

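HaCaT keratinocytes given undoped silver sulfide (Ag2S) nanoparticles at 160 μg/mL for 24 h were compared with untreated HaCaT keratinocytes across all measured genes. The comparison was set by its sample labels, with earlier results of these data known. It holds 6 of the 15 RNA-seq libraries of the series, untreated libraries 1, 2 and 3 and treated libraries 4, 5 and 6. Of 17092 genes in their table, 11838 had a mean of at least 1 FPKM (fragments per kilobase of transcript, scaled to the mapped fragments of the library) and were tested. HaCaT is an immortalized line grown from human skin keratinocytes. The other 9 libraries came from cells given undoped Ag2S at 320 μg/mL or Li-doped Ag2S at 160 or 320 μg/mL for the same 24 h, and the study asked whether such particles, which emit near-infrared light, raise the expression of extracellular matrix genes. The control is labelled only as untreated. The particles carried a coat of 3-mercaptopropionic acid, and the labels give no control with the coating agent alone, so the effects of silver sulfide and of its coat cannot be told apart. The sources used here do not tell if the 3 libraries of a group stem from separate cultures. P-values therefore measure only the spread between these libraries, which may be technical.

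Keratinocytes build the epidermis from a basal layer that rests on a basement membrane of laminins and collagens, held there by integrins. Transforming growth factor β (TGF-β) acts through receptor kinases and SMAD proteins to switch on genes of the matrix and its proteases and to slow the division of epithelial cells. Bone morphogenetic proteins (BMPs) act through other SMAD proteins on the ID genes, whose products block basic helix-loop-helix transcription factors. Keratinocytes at a wound edge switch on keratins 6, 16 and 17, remodel actin, secrete proteases and lay down laminin as they migrate.

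At this dose 1254 genes rose and 2900 fell at an adjusted p under 0.05 (called, limma on log2(FPKM + 0.1)), which is 10.6% and 24.5% of the genes tested. Of these, 253 rose by over 2-fold (2.14%) and 379 fell by over 2-fold (3.2%), 45 rose and 35 fell by over 4-fold, and 8 rose and 10 fell by over 8-fold. The 3 untreated libraries did not overlap with the 3 treated ones for 6198 genes, or 52.4% of those tested. The median log2 change of all genes was -0.143. When each library was scaled by its median ratio to the others, the median was -0.008 and the counts became 1901 risen (16.1%) and 1682 fallen (14.2%). All 1254 genes that rose also rose after scaling, and 1682 of the 2900 that fell also fell. Fold changes are understated for genes with low FPKM, because 0.1 was added before taking logs. The plot of all tested genes shows each change against its expression level. With a filter at a mean of at least 5 FPKM, 133 genes rose and 189 fell by over 2-fold.

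**Figure D1:**
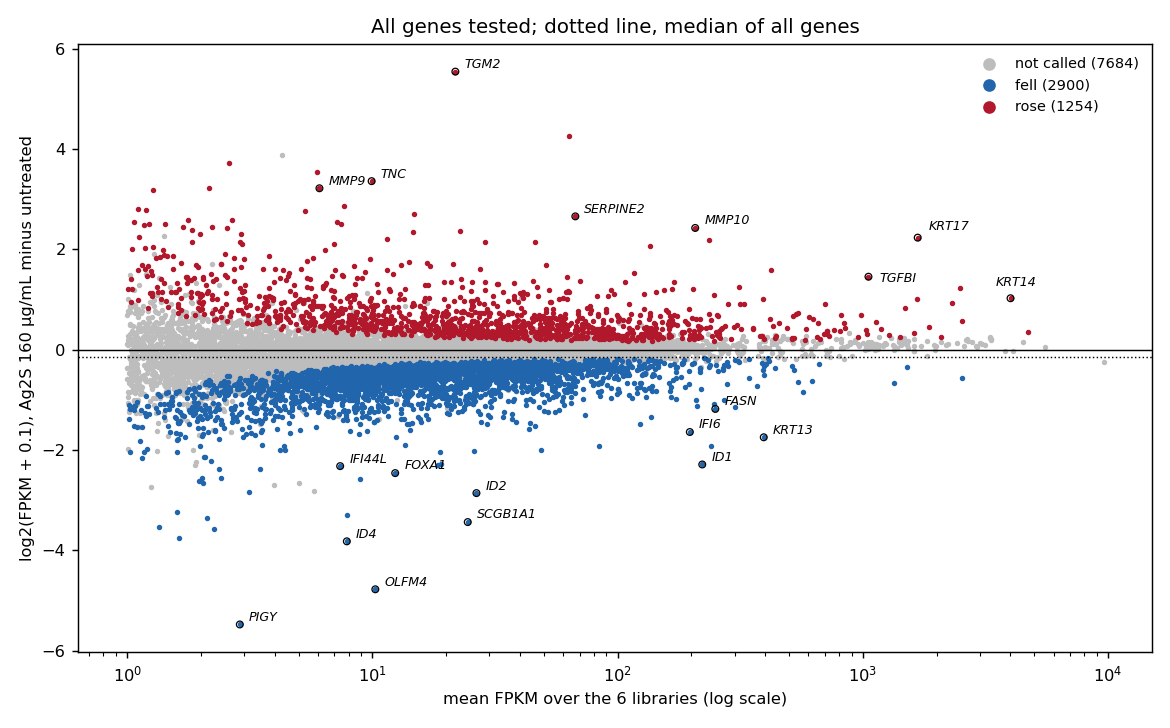
Change of each of the 11838 tested genes (log2(FPKM + 0.1), Ag2S 160 μg/mL minus untreated, vertical axis) against its mean FPKM over the 6 libraries (horizontal axis, log scale). Each point is a gene, red where it rose (1254), blue where it fell (2900) and grey where it was not called (7684). The dotted line marks the median of all genes, -0.143, and TGM2 lies highest among the labelled genes.

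Treated library 6 stood apart. Its summed FPKM was 648712 against 589969 to 607082 in the other 5 libraries, it had 11553 genes at 1 FPKM or more against 11780 to 11851, and its median FPKM was 5.53 against 6.25 to 7.03. Long transcripts read low in it, with a median log2 difference from control of -0.383 in the longest of 5 length classes and 0.0407 in the shortest. In library 5 these values were -0.206 and -0.0433, and in library 4 they were -0.111 and -0.113. With scaling within the 5 length classes 2030 genes rose and 1770 fell, and with library 6 left out 1354 rose and 2945 fell. For lists of genes, counts of untreated against treated cells are given below with scaling by median ratio or without library 6 where they moved by over 1.5 times.

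The cells carried the keratinocyte label in their RNA, as each of 10 keratinocyte markers was at 97.4 FPKM or more in every library. Basal keratins 5 and 14 form the intermediate filaments of the basal layer. KRT5 read 4033, 4225 and 4126 FPKM in the untreated libraries and 5108, 5168 and 5643 FPKM in the treated libraries (log2 change 0.36 ± 0.077, adjusted p = 0.00877), and did not pass without untreated library 1. KRT14 went from 2625, 2669.7 and 2610.2 FPKM untreated to 4948, 5296 and 5878 FPKM treated, and the groups did not overlap (log2 change 1.02 ± 0.084, adjusted p = 9.69e-05). TP63, the master transcription factor of stratified epithelia, rose by 0.72, while KRT15, another basal keratin, fell from 3156, 3025 and 2923 FPKM untreated to 1889, 2020.0 and 2251 FPKM treated (log2 change -0.57 ± 0.084, adjusted p = 0.00178). Of 12 tested basal genes 8 rose and 2 fell, with a median of 0.44.

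RNA of other cell types was near absent. VIM, abundant in mesenchymal cells, was listed at 0 in 4 libraries and at 0.03 and 0.2 FPKM in treated libraries 5 and 6. Summed over 9 fibroblast markers the level was 13.16 to 16.34 FPKM untreated and 7.69 to 7.93 FPKM treated, with DPT at 0 in all 6 libraries and with DCN (-1.66) and LUM (-1.43) fallen. Summed over 5 endothelial markers it was 3.47 to 4.01 FPKM against 0.41 to 0.81 FPKM. CDH5 made up most of it untreated and less of it treated, with means of 3.11 and 0.14 FPKM (log2 change -3.75 ± 0.32). The 7 immune markers summed to 11.35 to 12.76 FPKM against 14.42 to 16.39 FPKM, with CD68 risen by 0.34, a call lost without library 6. For 6 melanocyte markers the sums were 1.88 to 2.61 FPKM and 2.08 to 3.5 FPKM. The part of these low signals in the results was not tested. In bulk RNA, fewer cells of a kind and less RNA per cell cannot be told apart.

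The largest rise was that of TGM2, tissue transglutaminase, which cross-links matrix proteins. It read 0.58, 0.84 and 1.11 FPKM in the untreated libraries and 45.8, 40 and 42.5 FPKM in the treated libraries, a 50.7-fold difference of the means (log2 change 5.54 ± 0.2, adjusted p = 1.72e-06). Its gene lies at chr20:38127387-38166578 on the minus strand (GRCh38, as are all gene positions here), where its exons share 394 bases with RPRD1B on the opposite strand. Other leading rises were those of RDH16, a retinol dehydrogenase (3.54), tenascin C (TNC, 3.36), the gelatinase MMP9 (3.22), OLFM2 (2.87), EGFL7 (2.77), amelotin (AMTN, 2.7), SERPINE2 (2.66), HS3ST2 (2.55), TUBA1A (2.51), MMP10 (2.43), JUN (2.37), the collagen and elastin cross-linker LOXL1 (2.35) and KRT17 (2.23). TUBA1A shares 490 exon bases with its near copy TUBA1C, so its value is uncertain.

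The largest falls included OLFM4, ID4, SCGB1A1, ATP6V1B1 and ID2. OLFM4 (chr13:53028759-53052057 on the plus strand), a secreted glycoprotein of intestinal crypts, went from 20.7, 17.9 and 21.1 FPKM untreated to 0.43, 0.58 and 0.97 FPKM treated, 30.1-fold lower (log2 change -4.78 ± 0.25, adjusted p = 1.01e-05). SCGB1A1, an airway secretoglobin, read 49.8, 35.4 and 49.1 FPKM in the untreated libraries and 2.79, 3.77 and 6.05 FPKM in the treated libraries, and ATP6V1B1, a proton pump subunit, read 12.6, 12.6 and 18.1 FPKM in the untreated libraries and 1.54, 1.26 and 1.31 FPKM in the treated libraries. Their log2 changes were -3.44 ± 0.26 and -3.29 ± 0.18. Genes were ranked among the 15 largest only if the groups did not overlap, so their separation is no added result. FOXA1, a pioneer transcription factor of simple epithelia, fell by more than 2 on the log2 scale (21.8, 20.4 and 21 FPKM against 3.88, 3.84 and 3.51 FPKM, log2 change -2.46 ± 0.1, adjusted p = 3.98e-06). CALB1 (-2.83), ALPP (-2.58), RARB (-2.38), IFI44L (-2.32), PLEKHA7 (-2.3), ID1 (-2.29) and CCDC80 (-2.29) were also among the 15 largest. PIGY was listed at 8.25, 7.79 and 1.24 FPKM untreated and at 0 in every treated library, but its 217 annotated exon bases all overlap PYURF on the same strand, so its value is uncertain.

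**Figure D2:**
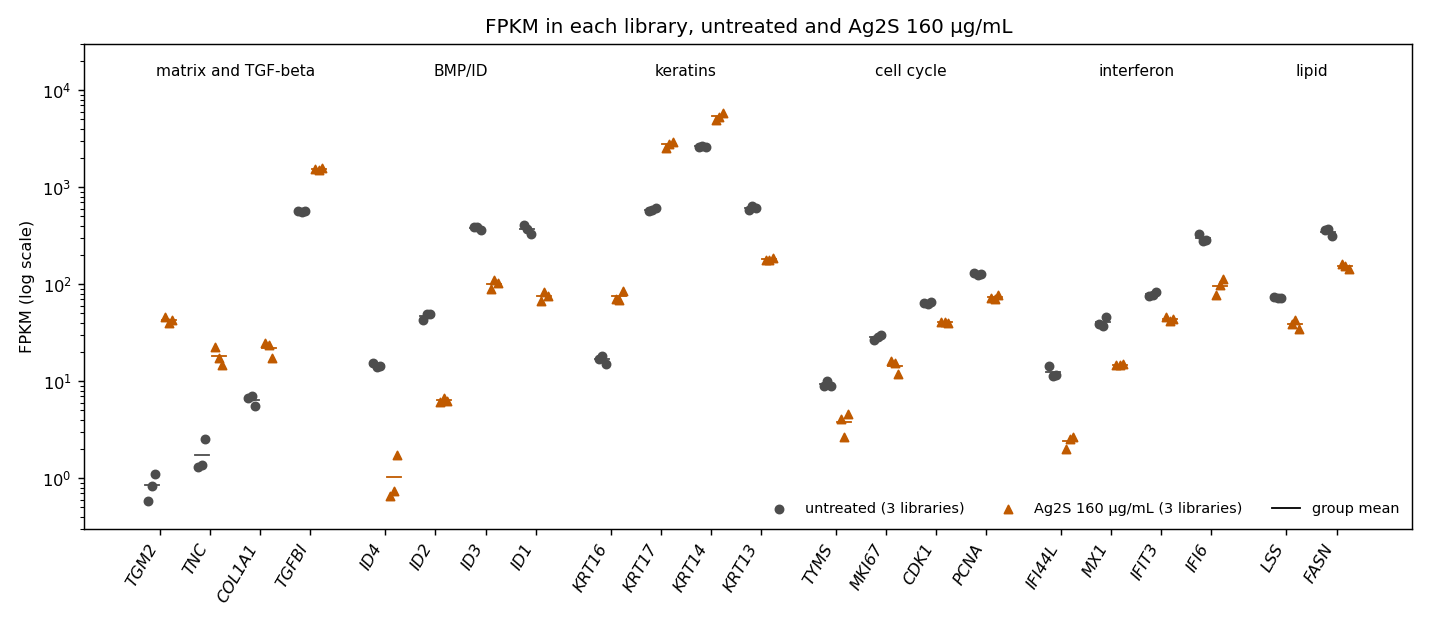
FPKM (vertical axis, log scale) of 22 genes in each of the 3 untreated libraries (grey circles) and the 3 libraries of Ag2S 160 μg/mL (orange triangles), grouped by role, with short lines at the group means. For each gene shown the 3 treated libraries lie wholly above or wholly below the 3 untreated ones, as for TGM2 and ID4.

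Matrix genes rose together. The study singled out 19 matrix genes from these samples, so their direction is not independent evidence. Of the 18 that were tested, 17 rose and 0 fell, with a median log2 change of 1.45. COL8A2 was too low to test. COL7A1, the anchoring fibril collagen, did not pass the test with all libraries (108, 98.3 and 96.8 FPKM against 177, 177 and 90.4 FPKM, log2 change 0.49 ± 0.23, adjusted p = 0.128), and its level in library 6 lay below the other 2 treated libraries and below every untreated one. Without library 6 its log2 change was 0.81 and passed.

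The single genes of matrix protein and its supply differed widely in level. TGFBI, an adhesion protein that TGF-β induces, read 564, 561 and 568 FPKM in the untreated libraries and 1555, 1500.2 and 1584 FPKM in the treated libraries (log2 change 1.45 ± 0.059, adjusted p = 3.47e-06). FN1, fibronectin, went from 31.8, 34.1 and 33.3 FPKM untreated to 104, 93.6 and 74.8 FPKM treated (log2 change 1.44 ± 0.12, adjusted p = 9.14e-05). COL1A1, a chain of type I collagen that skin fibroblasts make in bulk, was low in these cells at 6.7, 7.01 and 5.54 FPKM in the untreated libraries and 24.7, 23.4 and 17.3 FPKM in the treated libraries (log2 change 1.74 ± 0.16, adjusted p = 0.000149). The groups did not overlap for any of these 3 genes, and COL1A1 and FN1 were lowest among treated libraries in library 6. TNC rose from 1.29, 1.37 and 2.53 FPKM untreated to 22.3, 17.2 and 14.8 FPKM treated, although its exons share 129 bases with DEC1 on the opposite strand. TIMP1, an inhibitor of metalloproteinases, rose by 0.75 (63.1, 64.1 and 72.8 FPKM against 103, 113 and 121 FPKM). Of all 16 collagen chains tested, 10 rose and 0 fell, among them COL5A1 (1.67), COL4A1 (1.35) and COL12A1 (0.77). Their median was 0.852, 0.78 and 0.338 in treated libraries 4, 5 and 6, and 14 rose without library 6. COL17A1, the hemidesmosomal collagen, had a log2 change of 0.053 (adjusted p = 0.653). The enzymes of collagen folding and cross-linking moved less, with 9 of 19 risen and P4HA1 fallen by 0.22, a call that was lost with scaling. SERPINH1, the collagen chaperone, had a log2 change of 0.13 (adjusted p = 0.176).

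Not every matrix gene followed. Among 22 glycoproteins 9 rose, including SPARC (1.14), SPOCK1 (1.3) and thrombospondin 1 (THBS1, 0.85), while OLFM4, DCN, LUM and the hyaluronan synthase HAS2 (-1.63) fell. The proteases that digest matrix rose with it in part. Of 22 metalloproteinases and inhibitors 12 rose, led by MMP9 (1.14, 1.07 and 1.09 FPKM against 11.7, 10.4 and 11.1 FPKM) and MMP10, and MMP12 (-1.39) and ADAMTS1 (-1.17) fell. MMP1, the interstitial collagenase, rose by 1.2, TIMP2 by 1.58 and TIMP3 by 0.74. MMP14, the membrane collagenase, had a log2 change of 0.085 (adjusted p = 0.495). In the plasminogen system 7 of 13 rose and THBD (-0.88) and PLAT (-0.51) fell. SERPINE2, a protease nexin, went from 19.6, 17.7 and 17.8 FPKM untreated to 115, 116 and 117 FPKM treated (log2 change 2.66 ± 0.069, adjusted p = 2.21e-07), PLAUR, the urokinase receptor, rose by 1.21, and PLAU itself had a log2 change of 0.22 (adjusted p = 0.0759).

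Known TGF-β targets rose as a group, with 27 of 36 risen, 0 fallen and a median of 0.88. Some of them are also matrix genes above. PMEPA1, a feedback inhibitor of the pathway, rose by 2.06 ± 0.096, ITGB6, part of an integrin that frees latent TGF-β, by 1.37 ± 0.1, and the transcription factor SNAI2 by 1.16 ± 0.06. The list median was 0.975, 0.951 and 0.944 in treated libraries 4, 5 and 6, against -0.107, -0.125 and -0.178 over all genes. Genes that carry the signal moved in both directions. TGFB1, the ligand, read 25.4, 24.6 and 22.7 FPKM in the untreated libraries and 44.2, 51.6 and 46.9 FPKM in the treated libraries (log2 change 0.97 ± 0.086, adjusted p = 0.000142), and its exons share 215 bases with HNRNPUL1. FST, which binds activin, rose by 2.21. SMAD3, the signal carrier, fell from 78.9, 76.1 and 77.7 FPKM untreated to 52.7, 53.6 and 39.3 FPKM treated (log2 change -0.69 ± 0.12, adjusted p = 0.00315), as did the inhibitory SMAD6 (11.7, 11.8 and 8.64 FPKM against 4.32, 5.36 and 4.1 FPKM, log2 change -1.2 ± 0.17, adjusted p = 0.00127). For the receptors the log2 changes were -0.24 for TGFBR1 (adjusted p = 0.132) and 0.11 for TGFBR2 (adjusted p = 0.296), and for the inhibitory SMAD7 0.37 (adjusted p = 0.112). Of 21 such genes 5 rose and 3 fell, and 9 rose with scaling, 8 without library 6 and 11 with scaling within length classes, with 3 fallen each time.

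All 4 ID genes fell. ID1, the most abundant, went from 408, 367 and 328 FPKM untreated to 67.6, 82.8 and 75.2 FPKM treated (log2 change -2.29 ± 0.1, adjusted p = 4.77e-06). ID2 read 42.4, 48.8 and 49.2 FPKM in the untreated libraries and 6.04, 6.73 and 6.3 FPKM in the treated libraries (log2 change -2.86 ± 0.096, adjusted p = 1.24e-06). ID3 went from 393, 387 and 363 FPKM untreated to 89.1, 112 and 104 FPKM treated and ID4 from 15.6, 14.2 and 14.4 FPKM untreated to 0.66, 0.73 and 1.72 FPKM treated. Every treated library was at least 3-fold below every untreated one for each of the 4 genes. Of the other tested genes of the BMP pathway, the ligand BMP3 fell (-2.55), BMP2 (0.24), BMP7 (0.59), FSTL1 (0.83) and the decoy receptor BAMBI (1.01) rose, and 6 were not called. BAMBI did not pass without untreated library 1 or without treated library 5.

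Genes that attach and move keratinocytes rose. In the list of laminins, integrins and hemidesmosome genes 14 of 19 rose, with a median of 0.51. LAMA3 and LAMB3, chains of the laminin that anchors basal keratinocytes, rose by 1.53 ± 0.069 and 0.7 ± 0.062. The only members that fell were LAMA5 (-0.78) and LAMB2 (-0.73), named after their values were seen. LAMA5 did not pass without untreated library 1 or 2. ITGB4 and ITGA6, which pair as the laminin receptor of hemidesmosomes, rose by 0.6 and 0.46, and ITGB1 by 0.49.

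Of 32 actin cytoskeleton genes 22 rose and TPM2, named after its values were seen, fell (-1), a call lost without any single untreated library. Cytoplasmic actin ACTG1 went from 1432, 1513 and 1550.3 FPKM untreated to 3548, 3476 and 3495 FPKM treated (log2 change 1.23 ± 0.067, adjusted p = 1.18e-05) and ACTB rose by 0.84 ± 0.076, so ACTB is no fixed reference gene in this comparison. The actin bundlers and stabilizers TPM1 (1.37), FLNA (1.24) and FSCN1 (1.1) rose as well. SRF, a regulator of actin genes, was not called.

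Keratins of activated keratinocytes rose steeply. KRT17 went from 568, 578 and 615 FPKM untreated to 2565, 2818 and 2905 FPKM treated (log2 change 2.23 ± 0.073, adjusted p = 1.24e-06), and KRT16 read 17.1, 18 and 15.2 FPKM in the untreated libraries and 71.2, 68.9 and 85.7 FPKM in the treated libraries (log2 change 2.16 ± 0.11, adjusted p = 7.05e-06). KRT6A rose by 0.9 ± 0.066. Keratins 14, 16 and 17, and 6A, 6B and 6C, are close in sequence, so reads may have been split between them. In the list of activated and migrating keratinocyte genes 13 of 19 rose, S100A8 (0.95) and CD44 (0.67) among them. Opposite to these, KRT13 fell from 576, 638 and 610.2 FPKM untreated to 179, 179.7 and 185 FPKM treated (log2 change -1.75 ± 0.062, adjusted p = 1.48e-06) and KRT4 from 41.5, 43.5 and 44.2 FPKM untreated to 15.4, 14.5 and 16.4 FPKM treated. Both are keratins of the upper layers of mucosal epithelia. Among connexins of gap junctions, GJB2 rose from 10.6, 9.88 and 11.4 FPKM untreated to 46.8, 46.7 and 48.1 FPKM treated (log2 change 2.14 ± 0.083, adjusted p = 2.47e-06) and GJB6 by 2.81, while GJB5 (-0.084, adjusted p = 0.345) was not called and GJA1 (0.099, adjusted p = 0.349) was called only with scaling. GJB5 and GJA1 were named after their values were seen.

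**Figure D3:**
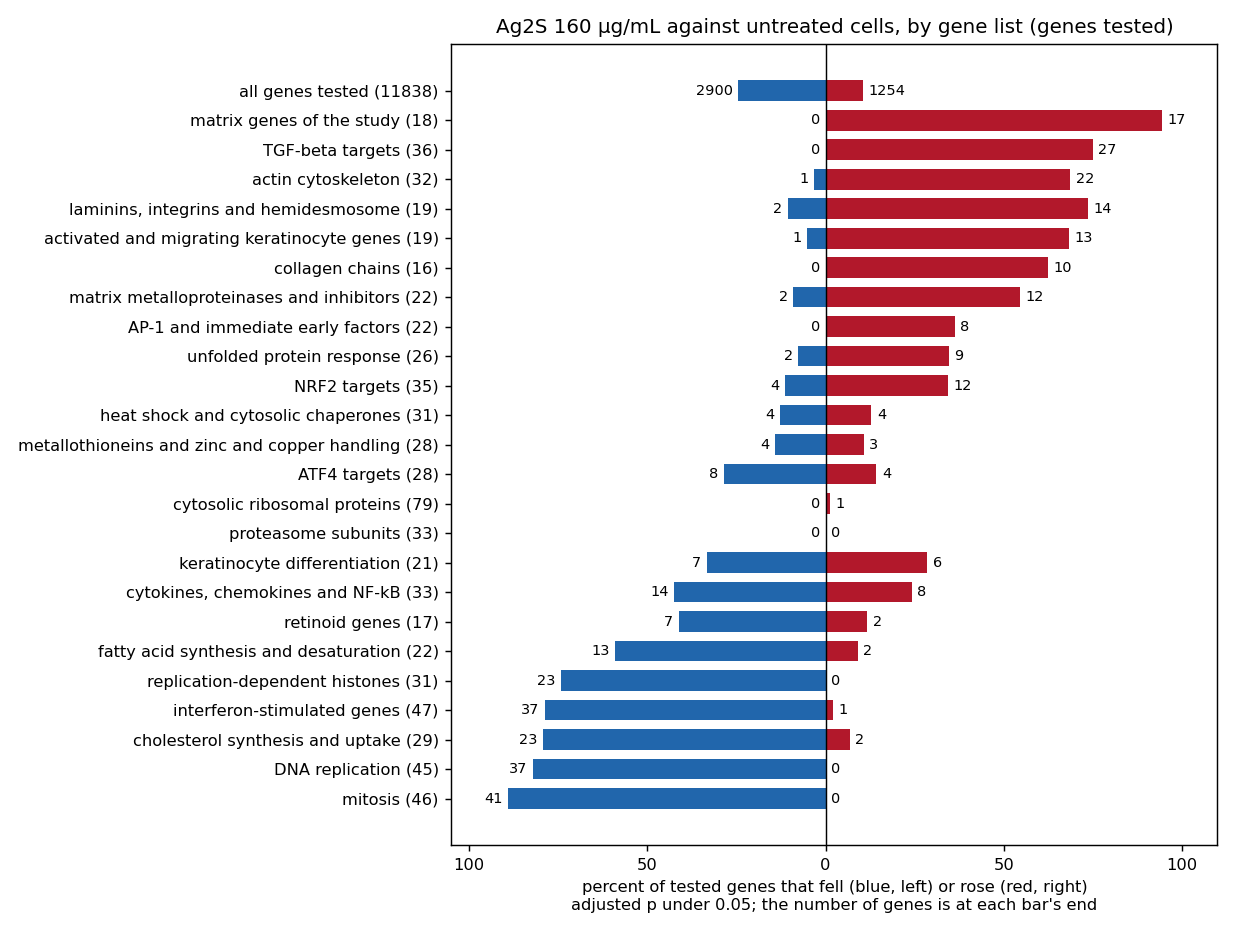
Share of the tested genes of each list that fell (blue, left) or rose (red, right) at an adjusted p under 0.05, with the number of genes at each bar's end and the number tested in parentheses. Over all 11838 genes 2900 fell and 1254 rose, against 0 and 17 of 18 matrix genes of the study and 41 and 0 of 46 mitosis genes.

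JUN, a subunit of the AP-1 transcription factor, read 6.7, 7.92 and 7.36 FPKM in the untreated libraries and 36.4, 42.9 and 35.6 FPKM in the treated libraries (log2 change 2.37 ± 0.11, adjusted p = 5.32e-06). JUNB (0.67), FOS (0.46) and EGR1 (0.53) rose less, and FOS did not pass without untreated library 1, untreated library 2 or treated library 5. Of 22 AP-1 and immediate early factors 8 rose and 0 fell. FOSL1, the AP-1 subunit of migrating keratinocytes, had a log2 change of 0.085 (adjusted p = 0.518). Among targets and feedback genes of ERK signaling 9 of 22 rose and 3 fell, with IER3 (1.68), ETV5 (1.45) and ETV4 (1.25) at the top. The EGFR ligand AREG rose by 1.8, while EPGN (-1.97) and EGFR itself (-0.49) fell.

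The site TGANTCA, to which AP-1 binds, was searched on both strands of RefSeq promoters (GRCh38.p14, 250 bases before to 50 after the gene's start), which matched 9181 of the tested genes. It was present in 4.5% of all of them, in 10.1% of the 178 with a promoter that rose over 2-fold and in 6.25% of the 240 that fell over 2-fold. The promoters of MMP10 (chr11:102780636-102780755, minus strand) and LAMA3 (chr18:23872835-23872954, plus strand) are shown because these genes, a matrix protease and a laminin chain, had the smallest p-values among those that rose over 2-fold and hold it before their start. The site is in capitals, and each stretch is 120 bases, 5′ to 3′ towards the gene.
MMP10: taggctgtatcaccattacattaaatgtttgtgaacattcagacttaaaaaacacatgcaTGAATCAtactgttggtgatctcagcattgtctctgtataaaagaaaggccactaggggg
LAMA3: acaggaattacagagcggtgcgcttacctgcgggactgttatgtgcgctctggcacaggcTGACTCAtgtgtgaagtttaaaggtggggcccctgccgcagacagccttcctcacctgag
MMP10 (stromelysin 2), downstream of this stretch, went from 62.3, 66.3 and 66.4 FPKM untreated to 356, 352 and 341 FPKM treated (log2 change 2.43 ± 0.059, adjusted p = 2.21e-07). LAMA3 went from 59.5, 58.5 and 61.8 FPKM untreated to 187, 171 and 164 FPKM treated.

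Genes of cell division fell. Of 46 mitosis genes 41 fell and 0 rose, with a median of -0.64, and of 45 DNA replication genes 37 fell and 0 rose, with a median of -0.64. After scaling the counts were 35 and 27, and still none rose. The falls were moderate. MKI67, the proliferation antigen Ki-67, went from 26.7, 28.6 and 30.1 FPKM untreated to 16, 15.5 and 11.9 FPKM treated (log2 change -0.98 ± 0.12, adjusted p = 0.000783). CDK1, the kinase that starts mitosis, read 64.5, 63.3 and 65.3 FPKM in the untreated libraries and 40.4, 41.1 and 40.1 FPKM in the treated libraries (log2 change -0.67 ± 0.061, adjusted p = 0.000171), and PCNA, the replication clamp, read 129, 125 and 127 FPKM in the untreated libraries and 72.9, 70.7 and 76.6 FPKM in the treated libraries (log2 change -0.79 ± 0.061, adjusted p = 7.31e-05). The 3 treated libraries lay below the 3 untreated ones for each of these genes. The list medians per treated library were -0.614, -0.646 and -0.659 for mitosis and -0.628, -0.647 and -0.685 for DNA replication, again apart from those of all genes.

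The transcription factors that drive S phase fell by more than the list median, E2F1 from 3.55, 3.92 and 3.74 FPKM untreated to 0.87, 1.12 and 1.06 FPKM treated (log2 change -1.79 ± 0.2, adjusted p = 0.000503) and E2F2 as well (-2.21), and the replication enzyme TYMS went from 8.96, 10.2 and 9.03 FPKM untreated to 4.07, 2.67 and 4.59 FPKM treated (log2 change -1.32 ± 0.2, adjusted p = 0.00187). CDC6, which loads the replicative helicase, fell (-1.25), as did CCNE2 (-1.41) and MYC (-0.6). CDKN1A, the inhibitor p21 of cyclin-dependent kinases, rose from 117, 124 and 117 FPKM untreated to 197, 209 and 199 FPKM treated (log2 change 0.76 ± 0.06, adjusted p = 8.47e-05), and CCND1 by 0.36, with 497 exon bases shared with LTO1. CCNE1 had a log2 change of 0.0019 (adjusted p = 0.995). Within mitosis the late regulators CCNB1 (-0.34) and BIRC5 (-0.27) fell only without scaling, and CDC20 was not called (adjusted p = 0.341). Of 31 replication-dependent histone genes, which are transcribed in S phase and have many near-identical copies, 23 fell and 0 rose, by a median of -1.08. HIST1H3H, for example, went from 19.8, 19.4 and 18.9 FPKM untreated to 6.13, 4.89 and 6.13 FPKM treated (log2 change -1.75 ± 0.12, adjusted p = 3.7e-05).

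Promoters of these genes are shown for the element in which the lists stood apart from all promoters. TTTGAA, the cell cycle homology region (CHR), on either strand, was in 69.2% of 39 mitosis promoters and in 9.26% of all, and CCAAT in 79.5% and 37.1%. The E2F site, TTTCGCGC or TTTGGCGC on either strand, was in 26.3% of 38 DNA replication promoters and in 2.09% of all. The genes shown have the smallest p-values among the holders of each element, with the element in capitals. They are CDK1 (chr10:60778110-60778229, plus strand), KIF23 (chr15:69414229-69414348, plus strand), ANLN (chr7:36389742-36389861, plus strand), PLK1 (chr16:23678769-23678888, plus strand), MCM7 (chr7:100101398-100101517, minus strand) and POLE (chr12:132687343-132687462, minus strand).
CDK1: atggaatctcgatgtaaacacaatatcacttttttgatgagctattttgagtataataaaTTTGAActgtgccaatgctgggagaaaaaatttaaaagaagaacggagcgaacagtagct
KIF23: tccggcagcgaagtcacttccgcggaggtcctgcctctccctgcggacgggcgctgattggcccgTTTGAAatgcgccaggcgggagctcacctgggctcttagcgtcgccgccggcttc
ANLN: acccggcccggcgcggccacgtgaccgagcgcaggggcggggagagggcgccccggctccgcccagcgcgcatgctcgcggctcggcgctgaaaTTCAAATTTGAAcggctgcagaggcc
PLK1: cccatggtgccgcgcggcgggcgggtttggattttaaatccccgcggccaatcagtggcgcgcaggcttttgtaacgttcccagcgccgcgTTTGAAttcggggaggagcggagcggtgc
MCM7: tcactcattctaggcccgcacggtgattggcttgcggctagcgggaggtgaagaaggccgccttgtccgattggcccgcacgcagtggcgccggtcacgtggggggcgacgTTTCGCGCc
POLE: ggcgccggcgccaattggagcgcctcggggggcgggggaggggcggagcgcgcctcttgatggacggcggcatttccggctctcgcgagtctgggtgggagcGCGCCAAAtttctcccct
The first 4 carry the CHR and the last 2 the E2F site. KIF23 (-0.84) and ANLN (-0.8), which act in cytokinesis, PLK1 (-0.59), a mitotic kinase, MCM7 (80.6, 86.1 and 81.6 FPKM against 45.5, 51.9 and 43.1 FPKM, -0.82), a subunit of the replicative helicase that shares 392 exon bases with AP4M1, and POLE (-1.02), a DNA polymerase named after its values were seen, all fell. Of the 27 mitosis genes with a CHR 25 fell, beside 41 of 46 in the list. Of the 10 DNA replication genes with an E2F site 9 fell, beside 37 of 45. Members with the element thus fell about as often as their list. Over all promoters, list members included, 32.2% of the 850 genes with a CHR fell and 7.18% rose. For the 192 with an E2F site these shares were 42.2% and 4.69%, against 24.5% and 10.6% of all 9181.

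Interferon-stimulated genes fell. Of 47 tested 37 fell and 1 rose, with a median of -0.73, and 31 fell after scaling. Type I interferons switch these genes on through STAT2 and IRF9, which bind a paired sequence, searched here as TTTC, any 2 bases and TTTC. That sequence, on either strand, was in 71.8% of 39 promoters of the list and in 2.77% of all. The 4 promoters shown belong to the members with the smallest p-values among those holding it, with the sequence in capitals, namely IFI44L (chr1:78620224-78620343, plus strand), IFI6 (chr1:27672289-27672408, minus strand), RTP4 (chr3:187368265-187368384, plus strand) and IFIT3 (chr10:89327781-89327900, plus strand).
IFI44L: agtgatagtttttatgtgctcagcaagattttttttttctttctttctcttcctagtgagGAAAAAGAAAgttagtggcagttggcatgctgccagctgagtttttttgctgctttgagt
IFI6: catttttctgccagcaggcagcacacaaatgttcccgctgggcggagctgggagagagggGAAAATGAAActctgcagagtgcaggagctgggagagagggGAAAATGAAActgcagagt
RTP4: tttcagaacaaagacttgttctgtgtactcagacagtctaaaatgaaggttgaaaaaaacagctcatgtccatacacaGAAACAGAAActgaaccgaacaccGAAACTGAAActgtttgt
IFIT3: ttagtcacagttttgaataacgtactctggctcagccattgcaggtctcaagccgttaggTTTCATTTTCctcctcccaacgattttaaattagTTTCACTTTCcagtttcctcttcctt
Of the 28 list members with the sequence 23 fell, beside 37 of 47 in the list as a whole, so members with it fell about as often as the list. Over all promoters 37% of the 254 genes that hold it, list members included, fell and 3.94% rose. Among all 9181 genes with a promoter 24.5% fell and 10.6% rose.

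IFI6, an antiviral protein and the most abundant of the 4, went from 326, 282 and 286 FPKM untreated to 77.9, 97.4 and 114 FPKM treated (log2 change -1.64 ± 0.13, adjusted p = 8.47e-05). IFI44L went from 14.3, 11.3 and 11.5 FPKM untreated to 2, 2.52 and 2.68 FPKM treated (log2 change -2.32 ± 0.16, adjusted p = 4.76e-05), RTP4 fell (-1.92) and IFIT3, an RNA-binding antiviral protein, went from 75.2, 77 and 83.4 FPKM untreated to 45.4, 41.6 and 43.4 FPKM treated. MX1, a GTPase that blocks viruses, read 39, 36.8 and 46.1 FPKM in the untreated libraries and 14.5, 14.8 and 15.2 FPKM in the treated libraries (log2 change -1.44 ± 0.097, adjusted p = 3.91e-05). The groups did not overlap for any of these genes, which for IFI44L was required for its place among the 15 largest falls. ISG15 (-0.57) and OAS1 (-0.82) were called only without scaling, and OAS1 was 27.1, 26.2 and 50.7 FPKM in treated libraries 4, 5 and 6. The only member that rose was OASL, from 34.1, 33.1 and 33.6 FPKM untreated to 43.9, 47 and 51.5 FPKM treated (log2 change 0.5 ± 0.078, adjusted p = 0.00236). The factors STAT2 (-0.79), IRF9 (-0.97) and IRF7 (-1.03) fell, and the kinase JAK1 rose (0.34). In the list of interferon signal factors, however, only 5 of 22 fell and 2 rose, with a median of -0.21. That is near the share over all genes tested, of which 24.5% fell and 10.6% rose. Of 25 genes of antigen presentation 9 fell, 4 after scaling, among them the regulators CIITA (-1.54) and NLRC5 (-1.15). HLA-B had a log2 change of 0.081 (adjusted p = 0.443) and B2M of -0.032 (adjusted p = 0.807), and reads of HLA genes may be shared between them.

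Lipid synthesis fell. Of 29 genes of cholesterol synthesis and uptake 23 fell and 2 rose (4 after scaling), with a median of -0.62. The 2 that rose without scaling, ABCG1 and TM7SF2, were named after their values were seen. HMGCS1, an early enzyme of the pathway, fell (-0.85 ± 0.13), as did lanosterol synthase, LSS (-0.93 ± 0.085). FASN, fatty acid synthase, read 361, 367 and 315 FPKM in the untreated libraries and 163, 153 and 143 FPKM in the treated libraries (log2 change -1.18 ± 0.081, adjusted p = 4.1e-05), and 13 of 22 fatty acid genes fell, ACLY (-0.95) and ACSS2 (-0.85) among them. The transcription factor SREBF1 fell (-0.68), with 556 exon bases shared with RAI1. SREBF2, the main regulator of cholesterol genes, had a log2 change of -0.083 (adjusted p = 0.281), which turned positive with scaling. SCD, the desaturase, fell (-0.34) only without scaling.

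**Figure D4:**
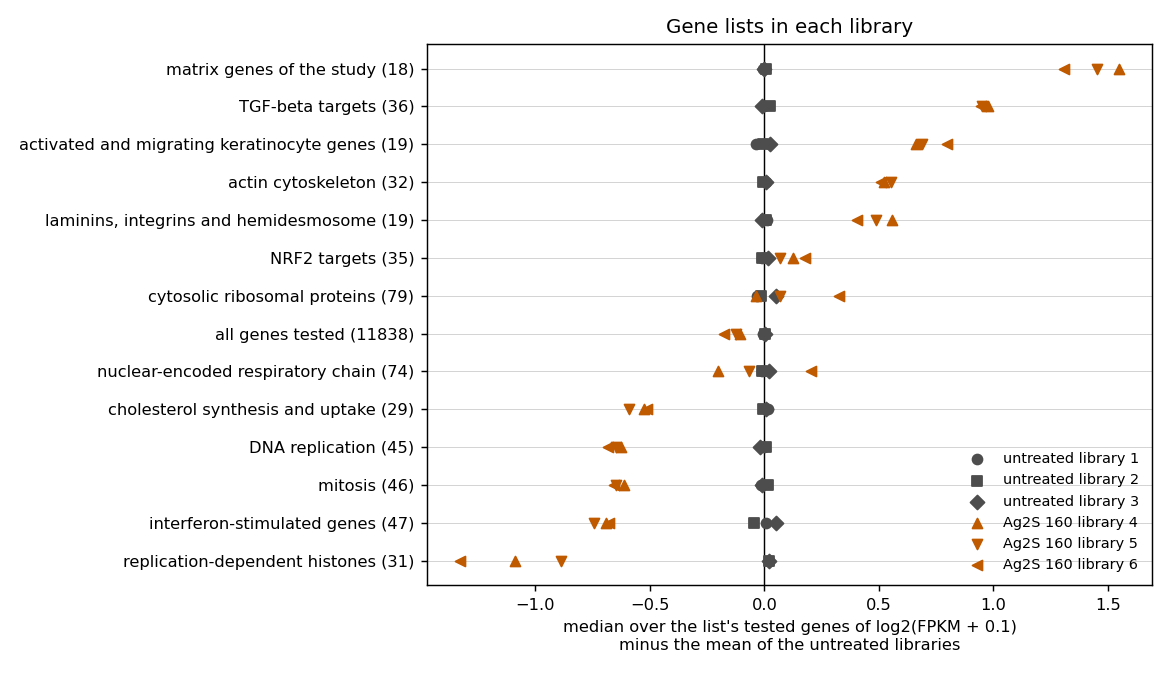
Median over the tested genes of each list (number in parentheses) of log2(FPKM + 0.1) minus the mean of the untreated libraries (horizontal axis), for untreated libraries 1 to 3 (grey) and treated libraries 4 to 6 (orange). The treated libraries lie close together for TGF-β targets (0.944 to 0.975) and mitosis (-0.659 to -0.614), while library 6 stands apart for ribosomal proteins and the respiratory chain.

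Metal, oxidant and protein folding responses were small beside these. Metallothioneins bind silver, copper and zinc and are switched on by metals. MT2A, the most abundant, was not called (1352, 1362 and 1334 FPKM against 1226, 1443 and 1355 FPKM, log2 change -0.012 ± 0.075, adjusted p = 0.912), and its sign turned with scaling. MT1X rose from 344, 362 and 376 FPKM untreated to 448, 537 and 517 FPKM treated (log2 change 0.47 ± 0.081, adjusted p = 0.00342) and MT1F by 0.41, and metallothionein genes are near copies of each other. The zinc importer SLC39A14 rose by 0.73, and SLC30A1, the zinc exporter, had a log2 change of 0.25 (adjusted p = 0.0693). Of 28 genes in the list 3 rose and 4 fell, against 6 and 1 after scaling. Over all genes tested 10.6% rose and 24.5% fell, and 16.1% and 14.2% after scaling.

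NRF2 targets, which answer oxidants, split, with 12 of 35 risen, 4 fallen and a median of 0.11, and without library 6 with 13 risen and 8 fallen. GCLM, a subunit of the enzyme that starts glutathione synthesis, went from 22.5, 24 and 21.4 FPKM untreated to 42.1, 38 and 44.6 FPKM treated (log2 change 0.87 ± 0.087, adjusted p = 0.000266), NQO1 rose by 0.79 and SRXN1 by 0.54. GSR, glutathione reductase, fell (-0.44). HMOX1, heme oxygenase, was not called (3.42, 3.98 and 4.06 FPKM against 5.06, 4.26 and 4.86 FPKM, log2 change 0.3 ± 0.15, adjusted p = 0.147), nor was GCLC (-0.014, adjusted p = 0.915). SOD2, the mitochondrial superoxide dismutase, fell (-0.77 ± 0.07). In the aryl hydrocarbon receptor list 2 of 7 rose, NQO1 and TIPARP (0.28), and CYP1B1 had a log2 change of 0.19 (adjusted p = 0.238).

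In the list for unfolded proteins in the endoplasmic reticulum 9 of 26 genes rose and 2 fell, and after scaling 14 rose and 0 fell. HSPA5, the main chaperone there, read 124, 122 and 121 FPKM in the untreated libraries and 181, 179.6 and 179 FPKM in the treated libraries (log2 change 0.56 ± 0.055, adjusted p = 0.000242), XBP1 rose by 0.96 and HSP90B1 had a log2 change of 0.093 (adjusted p = 0.379). Of 28 ATF4 targets, which answer amino acid shortage and stress, 4 rose and 8 fell (7 and 4 after scaling). Without scaling that is near the share over all genes tested, of which 10.6% rose and 24.5% fell. The transporter SLC1A4 (1.25) and ASNS, asparagine synthetase (0.7), rose, while the stress factors DDIT3 (-0.97) and NUPR1 (-1.09) fell. CHAC1 had a log2 change of 0.082 (adjusted p = 0.856). HSPB1, a small heat shock protein, rose from 1664, 1629.6 and 1500.3 FPKM untreated to 2549, 3381 and 3206 FPKM treated (log2 change 0.92 ± 0.11, adjusted p = 0.000634), but HSPA1B fell (-0.57) and 4 of 31 chaperones rose and 4 fell (11 and 3 after scaling). HSPA1A and HSPA1B are near-identical copies.

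Cytokines and death genes moved in both directions. IL1A (1.1, 1.19 and 1.15 FPKM against 4.29, 4.39 and 4.24 FPKM) and IL1B (2.98, 2.71 and 3.57 FPKM against 6.39, 7.25 and 6.2 FPKM), alarm cytokines of keratinocytes, rose, as did IL6 (1.17) and PTGS2 (0.56). CXCL8 (-1), TNFSF10 (-1.09), BIRC3 (-1.48) and CSF1 (-0.77) fell. CCL2, which attracts monocytes, went from 73.5, 71.1 and 76.5 FPKM untreated to 90.4, 95.4 and 106 FPKM treated (log2 change 0.39 ± 0.075, adjusted p = 0.0054). In this list 8 of 33 rose and 14 fell. Of 28 death genes 2 rose, BOK (0.76) and BMF (0.69), and 11 fell, 6 after scaling. Among p53 targets 3 of 22 rose (5 without library 6) and 6 fell, CDKN1A and MDM2 (-1.15) going opposite ways. Over all genes tested 10.6% rose and 24.5% fell, so the p53 counts with all libraries are near that share.

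Differentiation genes split. SPRR1A (2.1), SPRR1B (0.64) and PADI3 (1.65), which build and modify the cornified envelope, rose, while involucrin (IVL, -1.09), transglutaminase 1 (TGM1, -0.87), sciellin (SCEL, 29.2, 30 and 31.9 FPKM against 7.57, 7.39 and 6.93 FPKM, -2.04) and the transcription factor GRHL3 (-1.79) fell. In all 6 of 21 rose and 7 fell, and 22 of 43 genes in the table were below the expression limit. Of 30 genes of tight junctions, desmosomes and gap junctions 7 rose and 10 fell (11 and 9 after scaling). The tight junction genes OCLN (-0.96), TJP3 (-0.94) and CLDN1 (-0.51) fell, and CLDN4 was not called (0.018, adjusted p = 0.877). CDH1, E-cadherin, did not pass (log2 change 0.024, adjusted p = 0.835), but was called with scaling within length classes (0.21, adjusted p = 0.037). CDH2, N-cadherin, rose by 1.24 and the epithelial factors ELF3 (-2) and GATA3 (-0.89) fell. In the list of epithelial identity and epithelial-mesenchymal genes 4 of 23 rose, 8 fell and 11 were not called. Its median was -0.1, against -0.143 over all genes. Retinoid genes fell in 7 of 17, including the receptor RARB (6.04, 5.84 and 5.78 FPKM against 1.07, 1.38 and 0.77 FPKM) and the retinol carrier STRA6 (-1.6), against the rise of RDH16 (0.8, 0.88 and 0.9 FPKM against 10.5, 11.7 and 10.9 FPKM). RARB shares 28 exon bases with TOP2B, and STRA6 540 with CCDC33. In the Wnt list the inhibitor DKK1 fell from 41.1, 38.9 and 44.9 FPKM untreated to 11.8, 8.74 and 10.4 FPKM treated (log2 change -2.01 ± 0.12, adjusted p = 1.72e-05), and 9 of 18 rose, FZD10 (1.41), SFRP1 (1.39) and WNT4 (1.18) among them. YAP targets, another gene group of migrating cells, were mostly not called, with 1 of 20 risen, CYR61 (0.54), and 5 fallen, IGFBP3 (-1.48) most. After scaling 2 rose and 3 fell, and without library 6 3 rose and 5 fell. Over all genes tested 10.6% rose and 24.5% fell, and 16.1% and 14.2% after scaling.

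Of 79 cytosolic ribosomal protein genes 1 rose and 0 fell (8 rose after scaling, and 3 rose and 2 fell without library 6). Of 33 proteasome subunits 0 were called, and 1 rose after scaling and 3 fell without library 6. Of 74 nuclear genes of the respiratory chain 1 rose and 7 fell (2 and 4 after scaling), but 25 fell without library 6. Ribosome biogenesis genes fell in 12 of 35 and in 2 after scaling. Lysosome and autophagy genes rose in 3 and fell in 12 of 41, and in 9 and 6 after scaling. Glycolysis and hypoxia genes rose in 6 and fell in 9 of 35, with the order turned after scaling (11 and 5). Of 23 endocytosis genes 5 rose and 5 fell (3 after scaling). Over all genes tested 10.6% rose and 24.5% fell, and 16.1% and 14.2% after scaling. The shares fallen without scaling in the lysosome, glycolysis and endocytosis lists were near that of all genes. Mitochondrially encoded mRNAs were not analysed here.

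The higher dose of the same particle was compared directly. The 160 and 320 μg/mL groups share their untreated libraries, so no overlap of their calls is given. Of 11884 genes tested, 595 (5.01%) were higher and 1116 (9.39%) lower at 320 than at 160 μg/mL. With scaling by median ratio 776 were higher and 790 lower. Leading matrix genes were higher still at the higher dose. TNC read 22.3, 17.2 and 14.8 FPKM at 160 and 72.7, 65.2 and 67.5 FPKM at 320 μg/mL (log2 difference 1.93 ± 0.22, adjusted p = 0.000411), and TGM2 went to 91, 84.4 and 96.8 FPKM (1.08 ± 0.17, adjusted p = 0.00228). In the study's matrix list 12 of 18 were higher and 1 lower, and among TGF-β targets 15 of 36 were higher and 1 lower. The study showed its matrix genes only at the higher dose, where their expression was raised. Such a choice favours higher values there, so the count for the matrix list is not independent evidence of a dose effect. Some TGF-β targets are in that list too. The exception in the matrix list was amelotin, which was 24.7, 27.5 and 24.6 FPKM at 160 and 8.43, 10.8 and 10.5 FPKM at 320 μg/mL (-1.36 ± 0.14, adjusted p = 0.000144).

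Mitosis and cholesterol genes were lower at the higher dose. For mitosis 0 of 46 were higher and 41 lower, for cholesterol 0 of 29 were higher and 17 lower and for interferon-stimulated genes 0 of 47 were higher and 19 lower. For DNA replication 0 of 45 were higher and 7 lower, and 4 were lower with scaling or in the fit of the 6 treated libraries, so most of that list was not called between doses. MKI67 was 8.85, 7.25 and 6.61 FPKM at 320 μg/mL (-0.92 ± 0.14, adjusted p = 0.00158) and FASN 61.4, 50.8 and 55.1 FPKM (-1.46 ± 0.086, adjusted p = 6.21e-06). CENPW, a kinetochore protein, and ALDH3A1, an aldehyde dehydrogenase, had means of 90.5 and 60 FPKM untreated, 85.7 and 65 FPKM at 160 μg/mL and 30.9 and 24.6 FPKM at 320 μg/mL. The unfolded protein response was higher (14 of 26 were higher and 0 lower), with HSPA5 at 288, 295 and 309 FPKM (0.72 ± 0.05, adjusted p = 1.42e-05). L1CAM (2.76) and DHRS2 (2.5) had the largest positive differences among genes of at least 5 FPKM in the higher group, from means of 1.48 and 0.937 FPKM at 160 to 10.7 and 5.82 FPKM at 320 μg/mL. IL1B (1.36) was also higher. COL7A1 was higher at the higher dose (0.78), but not in a fit of the 6 treated libraries alone. CDKN1A did not differ detectably between the doses (difference -0.00082, 95% interval -0.13 to 0.13, adjusted p = 0.995). ID1 was not called after adjustment (difference -0.27, adjusted p = 0.106), but its unadjusted 95% interval of -0.49 to -0.042 lay below 0. A further fall of ID1 is thus neither shown nor excluded. ID2 was lower (-0.67).

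Li-doped Ag2S at the same 160 μg/mL and 24 h, a particle that differs by added lithium ions, was the only matched pair of particles compared. Both groups share the untreated libraries. Of 11987 genes tested, 2563 (21.4%) were higher and 3479 (29%) lower with the Li-doped than with the undoped particle. Matrix genes did not differ in a common direction between the particles. TGM2 was 45.8, 40 and 42.5 FPKM with the undoped and 16, 14.3 and 18.2 FPKM with the Li-doped particle (-1.4 ± 0.19, adjusted p = 0.000117), and TGFBI was lower (-0.94). For COL1A1 no difference was detected (difference -0.14, 95% interval -0.47 to 0.19, adjusted p = 0.468). In the study's matrix list more genes were higher with the Li-doped particle, 9 of 18, than lower, 4. The median difference of that list was 0.413, against -0.0522 over all genes. Among TGF-β targets 15 of 36 were higher and 13 lower, with a median of -0.0949.

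Most ATF4 targets and unfolded protein response genes were lower with the undoped than with the Li-doped particle. With it, CHAC1 had a mean of 1.21 FPKM against 1.12 FPKM untreated and 65.4 FPKM with the Li-doped particle (5.68 ± 0.21, adjusted p = 1.08e-08). ASNS was 12, 10.8 and 11.3 FPKM against 213, 209.6 and 197 FPKM (4.18 ± 0.099, adjusted p = 6.19e-10) and DDIT3 16, 17.9 and 16 FPKM against 179, 177 and 144 FPKM (3.31 ± 0.097, adjusted p = 2.1e-09). For ATF4 targets 25 of 30 were higher and 3 lower with the Li-doped particle, for the unfolded protein response 21 of 26 were higher and 0 lower, for ribosome biogenesis 28 of 35 were higher and 1 lower and for glycolysis 25 of 36 were higher and 2 lower. Other stress lists differed less evenly. Among antioxidant enzymes 2 of 20 were higher and 9 lower with the Li-doped particle. For NRF2 targets 17 of 35 were higher and 7 lower, and for heat shock and cytosolic chaperones 15 of 32 were higher and 5 lower. HMOX1 was higher by 1.71 and IL1A by 3.41. GCLM did not differ detectably (difference 0.048, 95% interval -0.13 to 0.22, adjusted p = 0.647), nor did HMGCS1 (difference -0.15, 95% interval -0.46 to 0.16, adjusted p = 0.388).

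Several genes were high with the undoped particle and low with the Li-doped particle. CCL2 was 90.4, 95.4 and 106 FPKM with the undoped particle and 0.63, 0.6 and 0.66 FPKM with the Li-doped particle (-7.06 ± 0.087, adjusted p = 3.52e-12). OASL read 43.9, 47 and 51.5 against 2.29, 3.14 and 2.91 FPKM (-4.05 ± 0.12, adjusted p = 1.94e-09), and AMTN 24.7, 27.5 and 24.6 against 1.72, 0.51 and 1.21 FPKM (-4.5 ± 0.32, adjusted p = 1.11e-06). All 3 had risen with the undoped particle. KRT15 (-2.9), MT1X (-1.17) and MX1 (-2.17) were lower with the Li-doped particle as well. Among interferon-stimulated genes 0 of 47 were higher and 46 lower, and for mitosis 0 of 46 were higher and 46 lower. SPRR2D and LCE1F, cornified envelope genes, were listed at 0 in all untreated libraries and had means of 0.0433 and 0 FPKM with the undoped against 13.2 and 5.95 FPKM with the Li-doped particle.

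**Figure D5:**
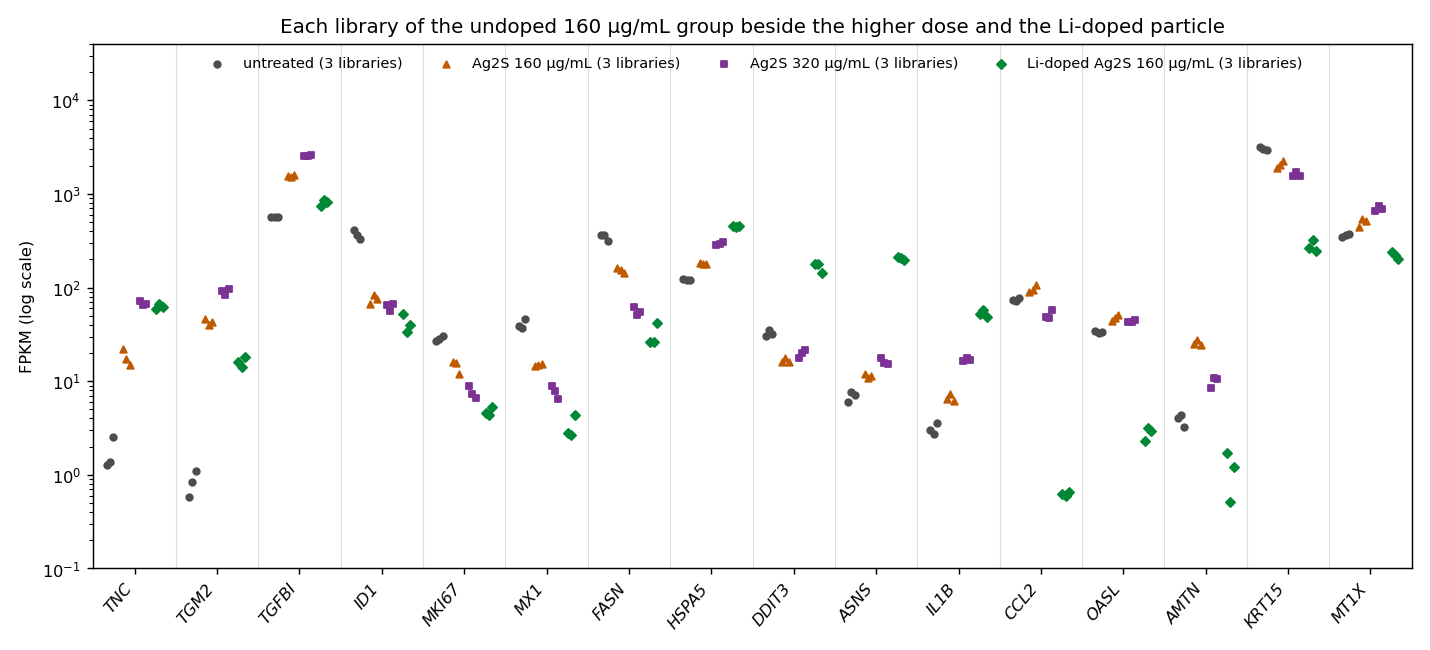
FPKM (vertical axis, log scale) of 16 genes in each of 3 libraries for untreated cells (grey), Ag2S 160 μg/mL (orange), Ag2S 320 μg/mL (purple) and Li-doped Ag2S 160 μg/mL (green). TNC and TGM2 are higher at 320 than at 160 μg/mL, and CCL2, OASL and AMTN are high with the undoped and low with the Li-doped particle at 160 μg/mL.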

How the data were processed

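RNA of HaCaT cells was sequenced, and the authors deposited a table of 17092 genes with FPKM per library for the 3 untreated libraries and the 3 libraries of Ag2S at 160 μg/mL. Per the submitters' processing notes and the study's methods, TopHat, Cufflinks 2.1.1 and Cuffdiff were used on paired reads from a TruSeq RNA kit, whose strand setting is not given in the sources used here, nor are the genome build and annotation release. The deposited FPKM values are rounded to 2 decimals, and the authors' log2 ratios, p-values and q-values in the same table were not used. Depth per library is not in the table and counts were not recovered, so precision comes from the spread of 3 libraries. The tables with the other treated groups hold the same FPKM for all shared libraries (0 values differed).

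Groups were taken from the labels. Genes with a mean of at least 1 FPKM were fitted on log2(FPKM + 0.1) with limma 3.58.1 in R 4.3.3 (lmFit, then eBayes with a trend, two-sided, Benjamini-Hochberg over all tested genes), and adjusted p under 0.05 was the threshold in every comparison. The direct comparisons with 320 μg/mL and with the Li-doped particle used the 9 libraries of the untreated and both treated groups, with the filter applied to those. The fit was tested on simulated data. Errors after ± are standard errors of the log2 change. All gene IDs were matched to GENCODE 29 (GRCh38) for positions, exon overlaps and lengths, and promoters came from RefSeq (GRCh38.p14).

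The 61 gene lists, the comparison and the rule for named genes were chosen with earlier results of these data known. The rule named the study's matrix genes with TGFB1, TIMP1, COL1A1 and TGM2, the 15 largest rises and falls among called genes with at least 5 FPKM in the higher group and no overlap, in each list the key genes and up to 6 further genes by smallest p-value, the 5 most abundant genes, and the 8 largest differences of each sign between treated groups. Some genes it names are not reported here. Genes outside it are marked where they appear. Lists are described by counts and medians, with no test of a list. Alternatives were another pseudocount, another filter, scaling by median ratio or within length classes, fits with another treated group, robust fits, weights per library and leaving out each library.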

Additional observations from a re-analysis of the deposited data

Results flagged for a closer look

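These values are differences between treated groups that share the untreated libraries, each by limma's direct test of the difference on log2(FPKM + 0.1). Between 320 and 160 μg/mL of the undoped particle, 595 genes were higher and 1116 lower at the higher dose. Among the genes named in the report, the difference (320 minus 160) was 1.08 for TGM2, 1.93 for TNC, 0.733 for TGFBI, 0.775 for COL7A1, 0.722 for HSPA5 and 1.36 for IL1B. It was 2.76 for L1CAM and 2.5 for DHRS2. Lower at the higher dose were MKI67 (-0.923), FASN (-1.46), CENPW (-1.46), AMTN (-1.36), ALDH3A1 (-1.4) and ID2 (-0.67). AMTN thus differed between doses with the opposite sign to TNC.

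Between the particles at 160 μg/mL, 2563 genes were higher and 3479 lower with the Li-doped particle. The difference (Li-doped minus undoped) was -7.06 for CCL2, -4.05 for OASL, -4.5 for AMTN, -1.17 for MT1X, -1.4 for TGM2, -0.938 for TGFBI, -2.9 for KRT15 and -2.17 for MX1. It was 5.68 for CHAC1, 4.18 for ASNS, 3.31 for DDIT3, 3.41 for IL1A and 1.71 for HMOX1. CCL2 and OASL lay above the untreated level with the undoped particle and below it with the Li-doped particle. With 3 libraries a group, no library within a group was tested as an outlier for single genes.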

How the results depend on the processing

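The labels do not tell if control and treated libraries were paired, so no paired analysis was done. Scaling within length classes and scaling with library 6 left out were chosen after seeing the data. The count of risen genes, 1254, became 1901 with scaling by median ratio, 1993 with weights per library, 2000 with scaling and no library 6, and 2030 with scaling within length classes. The count of fallen genes, 2900, became 1682, 4471, 1720 and 1770 in the same order. Leaving out 1 library, with the filter applied anew, gave 809 to 1355 risen and 1598 to 3179 fallen genes. Counts moved over 1.5 times without untreated library 1 (1745 fallen), 2 (809 risen, 1598 fallen) or 3 (820 risen, 1646 fallen). Past 2-fold, the 253 risen genes became 163 with a pseudocount of 1 and 133 with at least 5 FPKM. The 379 fallen became 215 and 189 with these, 252 with scaling, 200 with scaling and no library 6, and 244 with length classes. Fallen histone genes numbered 14 with at least 5 FPKM. Between doses the 6 treated libraries alone gave 386 higher and 641 lower, and scaling 776 and 790. Counts for TGF-β targets, matrix, laminin and integrin, actin, mitosis, DNA replication, interferon and cholesterol genes stayed within 1.5 times.

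Of 2617 values for 155 genes, 2565 kept direction and call, 33 lost the call, 10 gained it and 9 reversed, in 16 genes. The reversals were of values near 0 and not called. SREBF2 was 0.0527 with scaling, 0.0546 with scaling and no library 6, and 0.101 with length classes. MT2A was 0.124, 0.0964 and 0.0244 in these and 0.0677 with weights, and -0.0658 to 0.0513 with 1 library left out. CDH1 was -0.0486 to 0.0933 with 1 library left out, and was called at 0.21 (adjusted p = 0.038) with scaling and no library 6 and at 0.209 (adjusted p = 0.037) with length classes. The dose difference of CDKN1A was 0.0443 with scaling. Why the counts moved was not tested. Depth is unknown, so the lowest FPKM that can be told from 0 is too.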
